A study of Rattus norvegicus with 9 samples.

Results

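The transcription machinery of RNA polymerase II was followed here in rat blood, through 81 genes of 18166 measured. The members were chosen by symbol alone: they are all genes that carry a single symbol in the annotation of the array starting with Med or Taf and a digit, with Gtf2 or Gtf3, or with Polr2. They encode subunits of RNA polymerase II, of the Mediator complex and of the general transcription factors, and the symbols also take in factors of RNA polymerase I and III. Each gene was read from its brightest transcript cluster over 9 arrays, and only Taf9 had more than 1 cluster. A further 3 clusters that are shared with another gene were left out, so Taf3 and Gtf3c2 are not analysed here.

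Blood RNA of male Sprague-Dawley rats was hybridised to Affymetrix Rat Gene 2.0 ST arrays, 1 array for each rat and 3 rats in each group. Rats of the QDBS group, a model of stroke with Qi deficiency and blood stasis, swam to exhaustion daily for 21 days. Rats of the YDBS group, a model of stroke with Yin deficiency and blood stasis, received hydrocortisone at 45 mg/kg daily for 13 days and epinephrine at 0.36 mg/kg for 1 day. Occlusion of the middle cerebral artery (MCAO) followed in both models and a sham operation in the control group, and blood was taken from the abdominal aorta after 24 h of reperfusion. Each model thus combines a pretreatment with MCAO, and no group had MCAO or a pretreatment alone, so the effects of both cannot be told apart.

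In the nucleus, the general factors assemble at the start of a gene: TFIID, built of the TATA-binding protein and its associated factors (TAFs), marks the promoter, TFIIA and TFIIB hold it there, TFIIF brings in RNA polymerase II, and TFIIE and TFIIH open the DNA. Mediator, with head, middle and tail modules and a detachable kinase module, carries the signal of DNA-bound activators to the polymerase. In blood, these genes are used by leukocytes and by nucleated precursors, whereas mature mammalian red cells and platelets have no nucleus.

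Values are log2 signals as the authors deposited them, and a log2 difference of 1 is a fold change (FC) of 2. Array medians lay between 3.94 and 4.05 in the model groups and between 4.15 and 4.21 in the control group, and 75th percentiles between 5.53 and 5.57 and between 5.28 and 5.37. Control replicate 2 stood apart: it was the lowest control array for 56 of the 81 members (69.1%), against 40.3% of all genes. It was the lowest of all 9 arrays for 43 members, and this was not counted over all genes. The arrays also differed in markers of blood cells. The mean log2 signal of 6 natural killer cell markers lay between 7.25 and 7.62 on QDBS arrays and between 7.19 and 7.59 on YDBS arrays, against 5.89 to 6.14 on control arrays. For 10 T cell markers it was 8.66 to 8.86 in QDBS and 8.04 to 8.27 in YDBS, against 7.35 to 7.94 in the control group, and for 5 B cell markers 7.72 to 8.62 and 7.15 to 7.89, against 6.37 to 7.0. For 9 neutrophil markers it was 8.29 to 9.10 in QDBS and 9.35 to 10.15 in YDBS, against 8.12 to 8.31, and for 6 monocyte markers 8.57 to 9.0 and 8.56 to 8.62, against 8.27 to 8.64. Platelet and erythroid markers were lower on model arrays: 9.14 to 9.91 in QDBS and 9.61 to 10.58 in YDBS, against 10.80 to 11.03 in the control group, for 6 platelet markers, and 6.23 to 6.34 and 6.73 to 7.27, against 7.33 to 7.51, for 6 erythroid markers. For 9 hepatocyte markers, which mark no blood cell, the mean was 3.45 to 3.48 in QDBS and 3.51 to 3.6 in YDBS, against 5.25 to 5.82 in the control group, and 8 of them were called lower in each model. The part of these differences in the results was not tested, and in whole blood a change in the number of cells of a type and a change in RNA per cell cannot be told apart.

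Of the 81 members, 15 were up-regulated in QDBS against control at a FDR below 0.05 together with a log2 FC beyond 1, and none was down-regulated, where limma was fitted to all 9 arrays and the FDR adjusted over all 18166 genes. This is 18.5% of the members, against 9.62% of all genes called up and 1.36% called down. In YDBS against control 14 members (17.3%) were up-regulated and none was down-regulated, against 10.4% of all genes called up and 0.919% called down. At an unadjusted p under 0.05, with no criterion on the fold, limma put 6 members lower in QDBS and 7 in YDBS. The share of all genes at this p was not counted, but by FDR alone, which is stricter, 22.9% and 25.3% of all genes were lower. At the FDR and fold criteria the methods' t-test, like limma, called 0 lower in each. Of the up-regulated genes 13 were called in both models, which share the same 3 control arrays: Taf1, Taf2, Taf7, Taf15, Taf1d, Gtf2a1, Gtf2e2, Gtf2h1, Gtf3c6, Polr2b, Med1, Med13 and Med14. Med12 and Med17 were called in QDBS alone, and Gtf2a2 in YDBS alone.

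By FDR alone, with no criterion on the fold, 34 members were higher and 5 lower in QDBS, where 20.0% of all genes were higher and 22.9% lower. In YDBS 31 were higher and 6 lower, where 20.5% of all genes were higher and 25.3% lower. Every QDBS array exceeded every control array for 39 members and was below every control array for 6, where these shares were 22.8% and 31.3% of all genes. Every YDBS array exceeded every control array for 33 members and was below every control array for 9, with 23.4% and 33.3% of all genes. The median log2 FC of the members was 0.29 in QDBS and 0.30 in YDBS, and that of all genes was -0.15 and -0.16. The median stayed at or above 0.01 in both models under every scaling tried, although its size moved with the scaling.

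The members gave stronger signals than most genes on these arrays, and more genes were called at higher signals. Ranked by mean signal, 78 of the 81 members lay above the 40th percentile of all genes, with a median at percentile 70.2. Signals of different probe sets are not measures of RNA amount on one scale, so this ranking only describes how well a gene could be read. With the dimmest 40% of genes left out, 15.7% of the others were called up in QDBS and 17.0% in YDBS, where 15 and 14 of the 78 members were called. Between the 40th and the 70th percentile 8 of 36 members (22.2%) were called up in QDBS, against 9.03% of all genes in that band, and 9 of 36 (25%) in YDBS, against 9.52%. Above the 70th percentile the order was the other way: 7 of 42 members (16.7%) in QDBS, against 22.4% of all genes, and 5 of 42 (11.9%) in YDBS, against 24.4%. The overall counts are therefore not read as particular to the machinery.

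**Figure D1:**
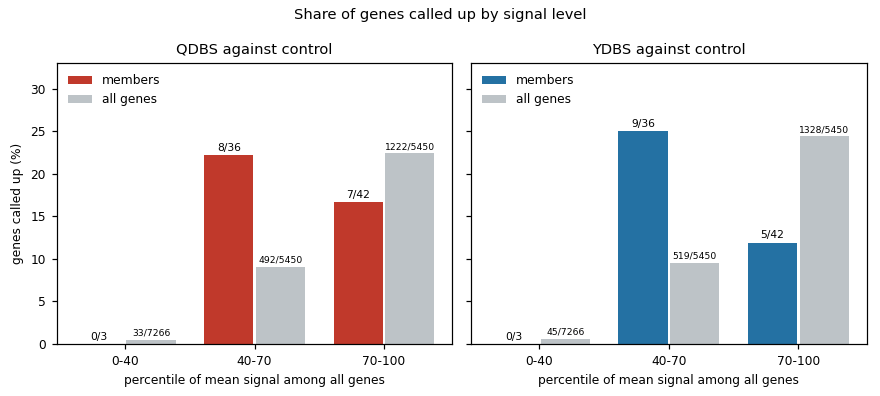
Share of genes called up against control (vertical axis, percent) in 3 bands of mean signal (horizontal axis, percentile among all genes), with QDBS left and YDBS right. Coloured bars are the members and grey bars all genes, with the number called and the number in the band above each bar; in the middle band the members' share is above that of all genes (22.2% against 9.03% in QDBS), and in the top band it is below (16.7% against 22.4%).

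Among the TAFs of TFIID, 3 of 14 measured genes (21.4%) were up-regulated in both models, Taf7, Taf1 and Taf2, against 9.62% and 10.4% of all genes. The other 11 had log2 FC between -0.34 and 0.91 in QDBS. Taf1 encodes the largest TAF, the scaffold of the complex with a pair of bromodomains that bind acetylated histones. Its signal was 5.74, 5.74 and 6.11 on the QDBS arrays and 5.76, 5.79 and 5.67 on the YDBS arrays, against 3.94, 3.77 and 4.01 on the control arrays. The model arrays lay far above all control arrays, and control arrays were close together. Taf1 had a FC of 3.89 in QDBS (log2 FC 1.96, standard error 0.13, FDR = 3.4e-06) and 3.56 in YDBS (log2 FC 1.83, standard error 0.13, FDR = 4.44e-06), the lowest FDR of the members in each.

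Taf7 binds Taf1 and, in human cells, restrains its acetyltransferase activity. Its signal was 5.74, 5.83 and 5.97 on the QDBS arrays and 5.89, 6.0 and 6.05 on the YDBS arrays, against 4.21, 3.12 and 3.72 on the control arrays. All model arrays were above all control arrays, and control replicate 2 was the lowest. Taf7 had the largest rise of the members in QDBS, with a FC of 4.48 (log2 FC 2.16, standard error 0.22, FDR = 3.88e-05), and a FC of 4.91 in YDBS (log2 FC 2.30, standard error 0.22, FDR = 2.32e-05). Without control replicate 2 the log2 FC was 1.88 and 2.01. Taf7l, the paralog known from germ cells, was not called, with a log2 FC of -0.09 (95% interval -0.39 to 0.21) in QDBS and -0.24 (-0.54 to 0.06) in YDBS, at a signal between 1.96 and 2.62 that is the dimmest of the members.

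Taf2, which contacts DNA at the start site together with Taf1, had 5.68, 5.47 and 5.59 on the QDBS arrays and 5.37, 5.49 and 5.48 on the YDBS arrays, against 4.44, 4.01 and 4.07 on the control arrays. No model array overlapped with a control array, and the log2 FC was 1.41 in QDBS and 1.27 in YDBS (standard error 0.13, FDR = 2.65e-05 and 4.24e-05).

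The promoters of Taf1 and Taf7 are shown because both genes rose in both models under every alternative tried. Each is the 250 bases before the first listed start of the gene, read in the direction of the gene from RefSeq on GRCr8, chrX:70680727-70680976 on the plus strand for Taf1 and chr18:29713325-29713574 on the minus strand for Taf7. Capitals mark 7 motifs searched on both strands, known as binding sites of promoter factors: the GC box (GGGCGG), the CCAAT box (the letters of its name), the ETS core (CCGGAAG), the NRF1 half-site (TGCGCA), the CRE half-site (TGACG), the ZNF143 core (ACTACAA) and the TATA box (TATAAA).
Taf1: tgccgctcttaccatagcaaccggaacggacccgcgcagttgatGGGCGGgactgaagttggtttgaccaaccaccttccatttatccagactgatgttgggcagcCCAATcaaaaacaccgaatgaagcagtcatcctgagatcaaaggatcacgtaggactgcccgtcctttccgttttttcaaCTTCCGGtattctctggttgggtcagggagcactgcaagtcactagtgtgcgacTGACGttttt
Taf7: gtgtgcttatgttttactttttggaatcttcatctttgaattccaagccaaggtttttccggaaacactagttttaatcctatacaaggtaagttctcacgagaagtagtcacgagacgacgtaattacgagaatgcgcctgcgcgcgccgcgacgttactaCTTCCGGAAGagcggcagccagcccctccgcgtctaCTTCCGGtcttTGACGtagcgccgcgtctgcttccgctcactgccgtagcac
Taf1 held 1 GC box, 1 CCAAT box, 1 ETS core and 1 CRE half-site. Taf7 held 3 ETS cores, of which 2 overlap each other on opposite strands, and 1 CRE half-site, and no GC box in this window.

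Other TAFs moved less. Taf9, a histone-fold TAF shared with the SAGA coactivator, had 7.28, 7.28 and 7.32 on the QDBS arrays and 7.28, 7.28 and 7.49 on the YDBS arrays, against 6.69, 6.40 and 6.60 on the control arrays. All model arrays lay above all control arrays, and a log2 FC of 0.73 (QDBS, FDR = 0.000796) and 0.79 (YDBS, FDR = 0.000448) passed the FDR but not the fold. The other cluster of Taf9, which is dimmer, gave 0.53 and 0.74. Its paralog Taf9b had 0.35 and 0.32 (FDR = 0.0479 and 0.063). Taf4b, a variant of Taf4 first known from human B cells, had 5.09, 5.10 and 4.83 on the QDBS arrays and 5.10, 5.25 and 4.67 on the YDBS arrays, against 3.97, 3.84 and 4.49 on the control arrays. All model arrays lay above all control arrays. The log2 FC of Taf4b was 0.91 in QDBS (FDR = 0.00423) and 0.91 in YDBS (FDR = 0.00399), whereas Taf4 itself had 0.29 and 0.08 (95% intervals -0.05 to 0.64 and -0.27 to 0.43). The difference between the paralogs was not tested. Taf5 and Taf6, core subunits with fixed places in TFIID, had 0.22 and 0.28 in QDBS and 0.27 and 0.13 in YDBS. Taf11, the partner of Taf13, had 5.58, 5.42 and 5.55 on the QDBS arrays and 5.44, 5.62 and 5.51 on the YDBS arrays, against 5.89, 5.87 and 5.80 on the control arrays. It was the only TFIID TAF lower in both models by FDR alone, with a log2 FC of -0.34 and -0.33 (FDR = 0.0296 and 0.0308). Taf13 had 0.35 and 0.40, Taf8 0.11 and 0.01, and Taf10 -0.20 and -0.31, none past the FDR. Without control replicate 2, however, Taf10 had -0.32 and -0.44 (FDR = 0.048 and 0.0124) and passed it in both models. Taf6l and Taf5l1, TAF-like proteins of SAGA, had 0.37 and 0.26 in QDBS and 0.09 and 0.43 in YDBS, with no FDR under 0.05.

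**Figure D2:**
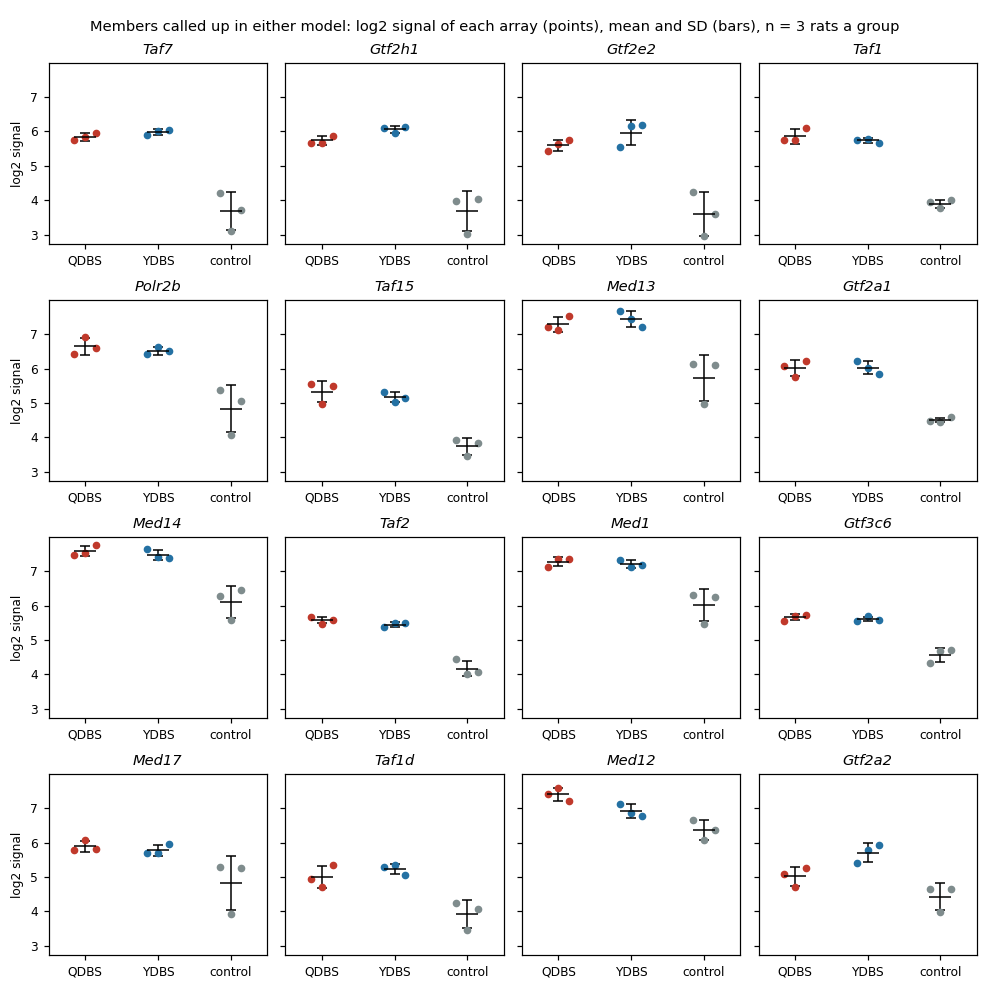
Log2 signal (vertical axis) of each array for the 16 members called up in either model, with QDBS in red, YDBS in blue and control in grey. Points are rats, and bars are the mean and SD of 3 rats. For each of the 16 genes all QDBS and all YDBS arrays lie above all control arrays, against 22.8% and 23.4% of all genes. The genes were called on these same arrays, so the lack of overlap is no separate support. Control replicate 2 is the lowest control array in 15 of them, against 40.3% of all genes, and the share among all called genes was not counted.

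TFIIA, TFIIB, TFIIE and TFIIF were covered by 8 genes, whose median was 0.76 in QDBS and 0.81 in YDBS on the log2 scale. By FDR alone 7 of the 8 were higher in each model, all but Gtf2a1l, where 20.0% (QDBS) and 20.5% (YDBS) of all genes were higher. Of these, 2 also passed the fold in QDBS and 3 in YDBS, against 9.62% and 10.4% of all genes called up. Gtf2a1, which encodes the large precursor of TFIIA, had 6.06, 5.76 and 6.22 on the QDBS arrays and 6.22, 6.02 and 5.85 on the YDBS arrays, against 4.48, 4.46 and 4.58 on the control arrays. The control arrays were close together, and all model arrays were above them. Its log2 FC was 1.51 in QDBS and 1.53 in YDBS (standard error 0.15, FDR = 2.72e-05 and 2.16e-05). Gtf2a1l, its paralog known from testis, had -0.23 and -0.22 (FDR = 0.126 and 0.134).

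The promoter of Gtf2a1, chr6:116252221-116252470 on the minus strand, is shown because this gene too was called under every alternative.
Gtf2a1: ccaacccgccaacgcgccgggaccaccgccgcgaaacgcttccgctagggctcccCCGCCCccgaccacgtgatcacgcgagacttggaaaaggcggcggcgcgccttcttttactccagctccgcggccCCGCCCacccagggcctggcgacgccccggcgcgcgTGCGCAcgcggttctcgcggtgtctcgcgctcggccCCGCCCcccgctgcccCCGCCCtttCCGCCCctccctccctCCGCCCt
It held 6 GC boxes, all read on the opposite strand as CCGCCC, and 1 NRF1 half-site.

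Gtf2a2, the small subunit of TFIIA, had 5.10, 4.72 and 5.25 on the QDBS arrays and 5.42, 5.78 and 5.94 on the YDBS arrays, against 4.66, 3.99 and 4.65 on the control arrays. The QDBS arrays lay between the other groups, with no overlap on either side. The log2 FC was 1.28 in YDBS (standard error 0.21, FDR = 0.000891), which passed both criteria, and 0.59 in QDBS (FDR = 0.046, and 0.37 without control replicate 2), which did not pass the fold. Between QDBS and YDBS it differed by -0.69 (95% interval -1.16 to -0.22), with a FDR of 0.212, so a difference between the models was not established over all genes tested.

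Gtf2e2, the beta subunit of TFIIE, had 5.42, 5.64 and 5.74 on the QDBS arrays and 5.55, 6.15 and 6.19 on the YDBS arrays, against 4.24, 2.97 and 3.6 on the control arrays. Control arrays ranged widely, but none reached a model array. Its rise on the log2 scale was 2.00 in QDBS and 2.36 in YDBS (standard error 0.28, FDR = 0.000308 and 9e-05), and 1.68 and 2.04 without control replicate 2. The alpha subunit Gtf2e1 had a smaller log2 FC of 0.65 and 0.48 (FDR = 0.00475 and 0.0187), and the difference between the subunits was not tested. Gtf2b, which is TFIIB, had 6.39, 6.31 and 6.48 on the QDBS arrays and 6.22, 6.56 and 6.62 on the YDBS arrays, against 5.65, 5.53 and 5.74 on the control arrays. Its model arrays were all above its control arrays, with a log2 FC of 0.75 and 0.83 (FDR = 0.00128 and 0.000667). For TFIIF, the large subunit Gtf2f1 had 0.91 and 0.79 and the small subunit Gtf2f2 0.76 and 0.56, all past the FDR and none past the fold.

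TFIIH is the factor that unwinds the promoter and phosphorylates the polymerase. In each model 1 of its 4 subunits among the members was up-regulated, against 9.62% (QDBS) and 10.4% (YDBS) of all genes. Gtf2h1, the p62 subunit of its core, had 5.67, 5.67 and 5.88 on the QDBS arrays and 6.10, 5.95 and 6.13 on the YDBS arrays, against 3.98, 3.02 and 4.05 on the control arrays. All model arrays lay above all control arrays, and control replicate 2 was about 1 lower than the other control arrays. The FC was 4.15 in QDBS (log2 FC 2.05, standard error 0.23, FDR = 7.29e-05) and 5.19 in YDBS (log2 FC 2.37, standard error 0.23, FDR = 2.44e-05), the largest rise of the members in YDBS. Without control replicate 2 the log2 FC was 1.72 and 2.04. Gtf2h3, the p34 subunit of the same core, had 5.64, 5.90 and 5.63 on the QDBS arrays and 5.64, 5.52 and 5.52 on the YDBS arrays, against 5.74, 5.73 and 5.61 on the control arrays. These arrays overlapped, and the log2 FC was 0.03 in QDBS (95% interval -0.23 to 0.29) and -0.13 in YDBS (-0.39 to 0.13). Gtf2h4, the p52 subunit, had 0.12 and 0.02, and Gtf2h5, the smallest one, 0.17 and 0.33, with no FDR under 0.05. The TFIIH subunits Ercc3 and Cdk7, which are not members by symbol, were up-regulated in both models and are given with the other initiation factors.

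The promoters of Gtf2h1 (chr1:106457442-106457691, plus strand) and Gtf2h3 (chr12:37686467-37686716, minus strand) are set side by side because 1 of these partners in the core of TFIIH was called and the other was not.
Gtf2h1: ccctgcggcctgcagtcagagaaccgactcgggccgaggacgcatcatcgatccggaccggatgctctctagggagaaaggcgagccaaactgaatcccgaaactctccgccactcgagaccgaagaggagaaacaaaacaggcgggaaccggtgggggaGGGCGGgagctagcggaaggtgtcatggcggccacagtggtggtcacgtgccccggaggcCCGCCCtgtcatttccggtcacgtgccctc
Gtf2h3: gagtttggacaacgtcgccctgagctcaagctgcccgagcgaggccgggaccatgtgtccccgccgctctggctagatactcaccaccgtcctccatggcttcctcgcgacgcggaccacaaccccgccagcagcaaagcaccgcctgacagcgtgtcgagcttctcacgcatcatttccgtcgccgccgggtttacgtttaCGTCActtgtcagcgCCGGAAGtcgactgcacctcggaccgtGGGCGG
Gtf2h1 held 2 GC boxes and none of the other motifs, and Gtf2h3 held 1 GC box, 1 ETS core and 1 CRE half-site.

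Of 11 measured genes of RNA polymerase II, only Polr2b was called (9.09%) in each model, against 9.62% and 10.4% of all genes called up. Polr2b, the second largest subunit, which forms the active site together with Polr2a, had 6.43, 6.92 and 6.60 on the QDBS arrays and 6.41, 6.64 and 6.52 on the YDBS arrays, against 5.38, 4.06 and 5.05 on the control arrays. No model array overlapped with a control array, although the control arrays differed by more than 1. The FC was 3.53 in QDBS (log2 FC 1.82, standard error 0.28, FDR = 0.000517) and 3.24 in YDBS (log2 FC 1.70, standard error 0.28, FDR = 0.00075). Without control replicate 2 it was 1.44 and 1.31 on the log2 scale, and by the methods' t-test the FDR was 0.0575 and 0.057, which ended both calls. Polr2a, the largest subunit, whose C-terminal repeats are phosphorylated during transcription, had 8.10, 7.98 and 7.71 on the QDBS arrays and 7.89, 7.48 and 7.20 on the YDBS arrays, against 7.67, 6.47 and 7.50 on the control arrays. QDBS arrays lay just above all control arrays, and YDBS arrays overlapped with them. The log2 FC of Polr2a was 0.71 in QDBS (95% interval 0.08 to 1.34, FDR = 0.0641) and 0.31 in YDBS (-0.32 to 0.94, FDR = 0.378). With control replicate 2 left out it was 0.34 in QDBS and, with the sign turned, -0.06 in YDBS.

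Among the small subunits, Polr2d, part of the stalk, had 0.70 and 0.58 (FDR = 0.0253 and 0.0497, but 0.48 and 0.36 with a FDR of 0.0752 and 0.158 without control replicate 2), and its stalk partner Polr2g -0.01 and -0.07 (FDR = 0.977 and 0.719). Polr2m, a protein that in human cells binds the polymerase and is not part of its core, had 0.69 in QDBS (FDR = 0.0115) and 0.35 in YDBS (FDR = 0.134). Polr2e, a subunit shared with RNA polymerase I and III, had 7.32, 7.13 and 7.25 on the QDBS arrays and 7.36, 7.32 and 7.19 on the YDBS arrays, against 7.49, 8.03 and 7.58 on the control arrays. All model arrays were below all control arrays, by -0.47 in QDBS and -0.41 in YDBS (FDR = 0.0267 and 0.0413), short of the fold criterion. Without control replicate 2, its highest array, the values were -0.30 and -0.25 (FDR = 0.0525 and 0.0945). Polr2c, Polr2f, Polr2h, Polr2i and Polr2j had log2 FC between -0.05 and 0.21 in QDBS and between -0.01 and 0.15 in YDBS, with no FDR under 0.05. A further pair of entries, Polr2sl1 and Polr2k-ps2, carries Polr2 in its symbol with no annotated role here, and had -0.18 and -0.43 in QDBS and -0.19 and -0.30 in YDBS.

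Of 28 measured Mediator genes, 5 (17.9%) were up-regulated in QDBS and 3 (10.7%) in YDBS, against 9.62% and 10.4% of all genes, and the median log2 FC was 0.18 and 0.16. Called in QDBS were Med17 in the head, Med1 in the middle, Med12 and Med13 in the kinase module, and Med14, counted with the tail. The calls of Med17, Med1 and Med12 in QDBS ended without control replicate 2. In YDBS the head held no called gene. Med14 is the backbone that joins head, middle and tail, and had 7.47, 7.53 and 7.75 on the QDBS arrays and 7.64, 7.40 and 7.39 on the YDBS arrays, against 6.29, 5.57 and 6.44 on the control arrays. All model arrays lay above all control arrays, with a rise of 1.48 on the log2 scale in QDBS and 1.37 in YDBS (standard error 0.20, FDR = 0.000283 and 0.000422), and 1.22 and 1.11 without control replicate 2. The call in YDBS ended under quantile normalization (0.94) and cyclic loess (1.00). The other genes counted with the tail were not called. Med23 had 0.62 and 0.36 (FDR = 0.0056 and 0.0551), and Med15, a target of activators, 0.26 and 0.30. Med24, Med27 and Med29 had log2 FC between 0.01 and 0.15 in QDBS and between -0.08 and 0.01 in YDBS. Med16 had 6.30, 6.39 and 6.30 on the QDBS arrays and 6.35, 6.25 and 6.41 on the YDBS arrays, against 6.59, 6.92 and 6.74 on the control arrays. Its model arrays were all below its control arrays, with a log2 FC of -0.42 and -0.42 (FDR = 0.0159 and 0.0156). Med25, which viral and cellular activators bind, had 7.39, 7.74 and 7.98 on the QDBS arrays and 8.13, 8.50 and 8.10 on the YDBS arrays, against 8.63, 7.80 and 8.57 on the control arrays. QDBS arrays were below all YDBS arrays and overlapped with control replicate 2, with a log2 FC of -0.63 in QDBS (FDR = 0.0472) and -0.09 in YDBS (FDR = 0.763). Without control replicate 2 Med25 had -0.90 (FDR = 0.00378) and -0.36 (FDR = 0.138).

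In the middle module 1 of 8 genes (12.5%) was called in each model, against 9.62% and 10.4% of all genes called up. Med1, through which nuclear receptors such as the glucocorticoid receptor reach Mediator, had 7.12, 7.35 and 7.35 on the QDBS arrays and 7.33, 7.12 and 7.19 on the YDBS arrays, against 6.30, 5.47 and 6.26 on the control arrays. No model array overlapped with a control array, and control replicate 2 was the lowest array. Med1 rose by 1.26 on the log2 scale in QDBS and 1.20 in YDBS (standard error 0.20, FDR = 0.000695 and 0.000857). Both calls ended without control replicate 2, where it was 0.99 and 0.93, and by the methods' t-test, with a FDR of 0.0543 and 0.0541. They ended too under quantile normalization (0.87 and 0.77) and cyclic loess (0.88 and 0.83), and the YDBS call with centring on the 75th percentile and with array weights (1.00 in each). Med4, Med10 and Med31 had 0.62, 0.47 and 0.44 in QDBS and 0.71, 0.67 and 0.89 in YDBS. Only Med4 passed the FDR in both models (FDR = 0.00547 and 0.00244), and all of them passed it in YDBS. Med9, Med19, Med21 and Med26 had log2 FC between -0.18 and 0.11 in QDBS and between -0.30 and -0.05 in YDBS, with no FDR under 0.05.

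In the head module Med17, its central scaffold, had 5.78, 6.07 and 5.82 on the QDBS arrays and 5.69, 5.69 and 5.96 on the YDBS arrays, against 5.30, 3.92 and 5.27 on the control arrays. All model arrays were above all control arrays, and control replicate 2 lay more than 1 below every other array. The log2 FC was 1.06 in QDBS (standard error 0.30, FDR = 0.0176), which was called, and 0.95 in YDBS (FDR = 0.0262), which was not. This value rests on control replicate 2, since without it the log2 FC was 0.60 and 0.50. Without QDBS replicate 2 the QDBS value was 0.96 with a FDR of 0.0639, and the call also ended under every scaling but median centring, with array weights (0.67) and by the methods' t-test (FDR = 0.174). Med6 and Med8 passed the FDR in both models, with 0.57 and 0.55 in QDBS and 0.63 and 0.86 in YDBS, except that the FDR of Med8 in QDBS was 0.0575 without control replicate 2. Med22 had -0.31 and -0.40 (FDR = 0.0872 and 0.0368), and Med11, Med20, Med28 and Med30 lay between -0.02 and 0.23 in QDBS and between -0.30 and 0.13 in YDBS.

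The kinase module holds Med12 and Med13 or their paralogs Med12l and Med13l, together with a kinase and cyclin C. Med13, which ties the module to the core of Mediator, had 7.22, 7.11 and 7.54 on the QDBS arrays and 7.68, 7.44 and 7.21 on the YDBS arrays, against 6.13, 4.96 and 6.11 on the control arrays. Model arrays lay above all control arrays, with control replicate 2 more than 1 below the other control arrays. The FC was 2.95 in QDBS and 3.27 in YDBS (log2 FC 1.56 and 1.71, standard error 0.28, FDR = 0.00142 and 0.000735). Without control replicate 2 the log2 FC was 1.17 and 1.32, and by the methods' t-test the FDR was 0.071 and 0.0579. Med13l had 6.96, 6.89 and 7.02 on the QDBS arrays and 7.15, 6.88 and 6.80 on the YDBS arrays, against 6.89, 6.56 and 6.80 on the control arrays. Its arrays overlapped between the groups, with a log2 FC of 0.21 (95% interval -0.09 to 0.50) and 0.19 (-0.10 to 0.49).

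Med12, the activator of the kinase, had 7.40, 7.60 and 7.21 on the QDBS arrays and 7.13, 6.85 and 6.77 on the YDBS arrays, against 6.65, 6.07 and 6.37 on the control arrays. QDBS arrays were highest, YDBS arrays next and control arrays lowest, with no overlap. The log2 FC was 1.04 in QDBS (standard error 0.17, FDR = 0.000836), and 0.56 in YDBS (FDR = 0.0218), short of the fold. The call in QDBS ended without control replicate 2, where it was 0.89, and without QDBS replicate 2, where it was 0.94. It also ended under quantile normalization (0.64), cyclic loess (0.66), centring on the 75th percentile (0.82) and array weights (0.90). Med12l had 5.52, 5.03 and 5.44 on the QDBS arrays and 6.34, 6.25 and 5.37 on the YDBS arrays, against 5.35, 5.37 and 5.44 on the control arrays. YDBS replicates 1 and 2 stood above every other array, and YDBS replicate 3 lay among the others. Its log2 FC was -0.06 in QDBS and 0.60 in YDBS (FDR = 0.852 and 0.0547). Both partners of the module that were measured, Cdk19 and Ccnc, were up-regulated in both models, with 1.23 and 1.07 in QDBS and 1.11 and 1.67 in YDBS. Of all genes 9.62% and 10.4% were called up.

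**Figure D3:**
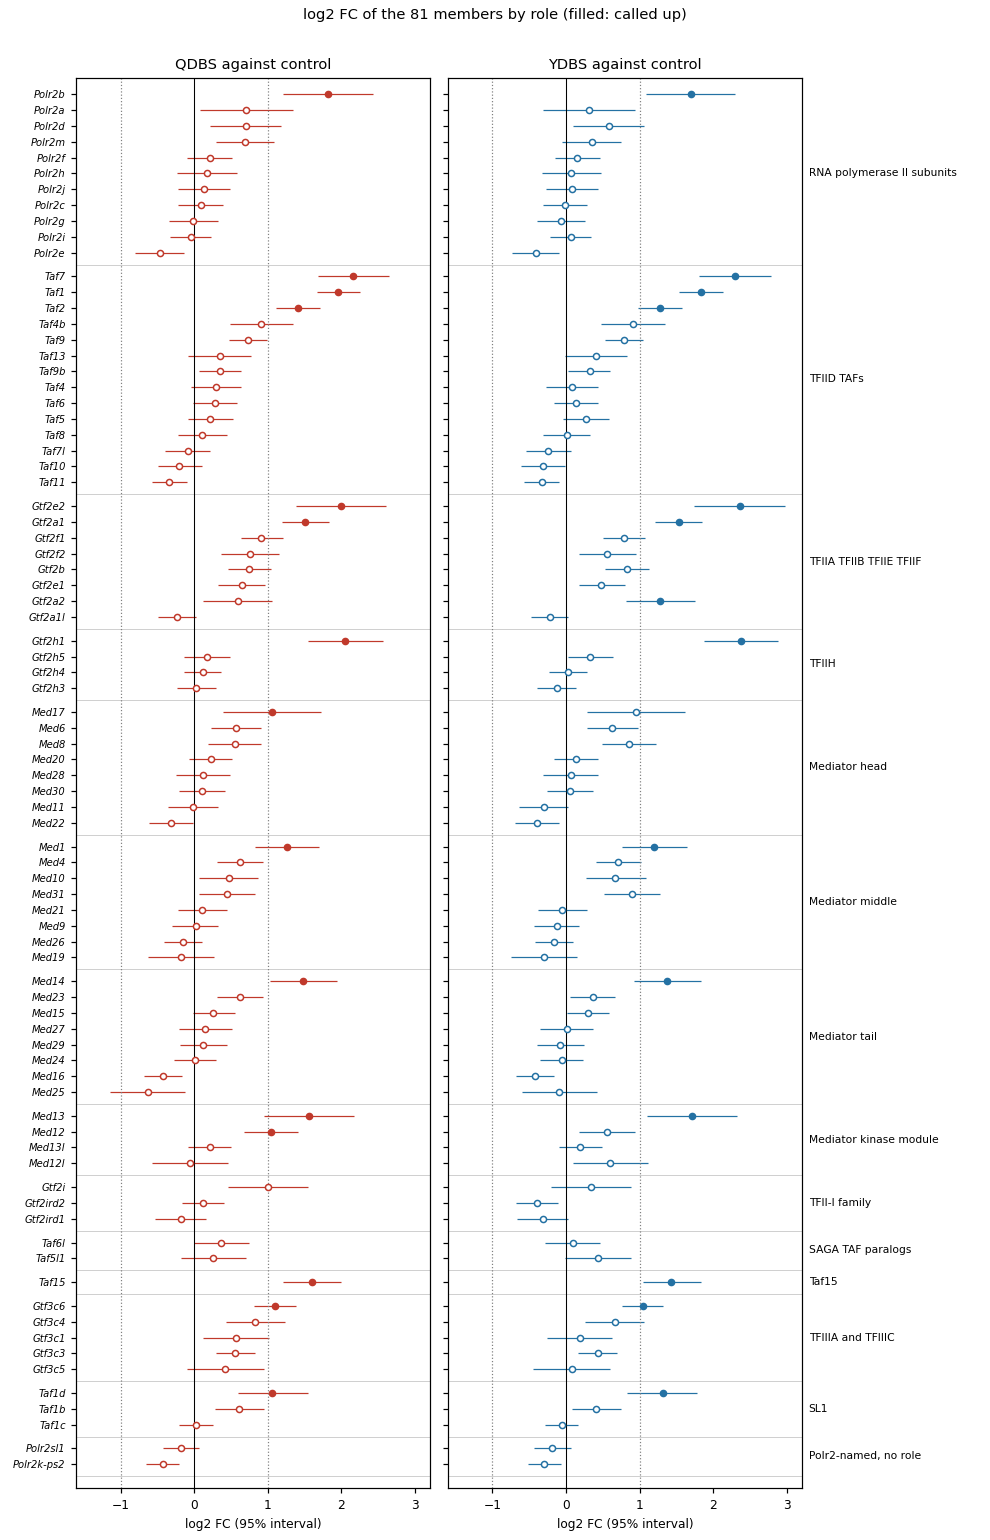
Log2 FC against control (horizontal axis) of each of the 81 members, grouped by role, in QDBS (left) and YDBS (right). Points are estimates from limma, lines their 95% intervals, filled points the genes called up, and dotted lines a log2 FC of 1 in either direction. In some groups of factors called genes stand beside genes near 0, such as Gtf2h1 (2.05 in QDBS) beside Gtf2h3 (0.03).

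Outside the core machinery, Taf15, an RNA-binding protein of the FET family that was found with TFIID, had 5.55, 4.98 and 5.48 on the QDBS arrays and 5.33, 5.04 and 5.14 on the YDBS arrays, against 3.92, 3.45 and 3.84 on the control arrays. No model array overlapped with a control array, and the log2 FC was 1.60 in QDBS and 1.43 in YDBS (standard error 0.18, FDR = 7.07e-05 and 0.000127). Gtf3c6, a subunit of TFIIIC, which recruits RNA polymerase III to transfer RNA genes, had 5.55, 5.71 and 5.74 on the QDBS arrays and 5.55, 5.69 and 5.59 on the YDBS arrays, against 4.34, 4.67 and 4.70 on the control arrays. Here control replicate 1 was the lowest array, and all model arrays lay above all control arrays. Its log2 FC was 1.1 and 1.04 (standard error 0.13, FDR = 9.53e-05 and 0.000123), and both calls ended without control replicate 1, at 0.98 and 0.92. Both also ended under centring on the 75th percentile (0.87 and 0.83) and cyclic loess (0.96 and 0.93), and the YDBS call under quantile normalization (0.95). The other TFIIIC genes, Gtf3c1, Gtf3c3, Gtf3c4 and Gtf3c5, had log2 FC between 0.42 and 0.83 in QDBS and between 0.08 and 0.66 in YDBS. Of these, Gtf3c3 and Gtf3c4 passed the FDR in both models and Gtf3c1 in QDBS alone. Gtf3c1 had 0.32 in QDBS (FDR = 0.11) without control replicate 2 and did not pass.

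Taf1d belongs to SL1, the TAF complex of RNA polymerase I at ribosomal RNA genes, and had 4.93, 4.71 and 5.35 on the QDBS arrays and 5.28, 5.36 and 5.07 on the YDBS arrays, against 4.26, 3.47 and 4.06 on the control arrays. All model arrays lay above all control arrays. The log2 FC was 1.06 in QDBS and 1.31 in YDBS (standard error 0.21, FDR = 0.00292 and 0.000788). The call in QDBS ended without control replicate 2 (0.83), without QDBS replicate 3 (0.89), with centring on the 75th percentile (0.84) and by the methods' t-test (FDR = 0.0833). Taf1b had 0.61 and 0.41 (FDR = 0.00904 and 0.0466), and Taf1c 0.02 and -0.06 (FDR = 0.869 and 0.628).

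Gtf2i encodes TFII-I, a signal-regulated factor that also acts at initiator elements, and had 7.92, 8.15 and 7.75 on the QDBS arrays and 7.56, 7.28 and 7.0 on the YDBS arrays, against 7.46, 6.38 and 6.99 on the control arrays. QDBS arrays were above all YDBS and all control arrays, and YDBS arrays overlapped with control arrays. With 1.00 in QDBS (standard error 0.25, FDR = 0.00846) it was not called, just short of the fold criterion, and in YDBS it had 0.34 (FDR = 0.262). These values were 0.72 and 0.06 without control replicate 2. Its relatives Gtf2ird1 and Gtf2ird2 had -0.18 and 0.12 in QDBS, and -0.32 and -0.40 in YDBS.

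Set directly against each other, QDBS and YDBS differed in no member at both criteria, where 0.33% of all genes were called in either direction. The smallest FDR of a member was 0.12, for Gtf2ird2, with 4.75, 4.79 and 4.48 on the QDBS arrays, against 4.27, 4.23 and 3.98 on the YDBS arrays. These arrays did not overlap, and the difference was 0.51 (95% interval 0.23 to 0.80). At an unadjusted p under 0.05, with no criterion on the fold, limma gave 7 members, and the share of all genes at this p was not counted. At the FDR and fold criteria the methods' t-test, like limma, called none. For 76 of the 81 members the 95% interval of the difference lay within a log2 of 1 in either direction, so larger differences lay outside the interval for these genes. The largest differences were -0.69 for Gtf2a2, -0.66 for Med12l (-1.17 to -0.14) and 0.66 for Gtf2i (0.12 to 1.20), followed by -0.54 for Med25, the 0.51 of Gtf2ird2, 0.48 for Med12 and -0.45 for Med31. The median difference over the members was 0.08, and over all genes 0.02. Neutrophil markers differed between the same arrays, with 3 of 9 called lower in QDBS, Cxcr2, Csf3r and Il1r2, and their part in these values was not tested.

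**Figure D4:**
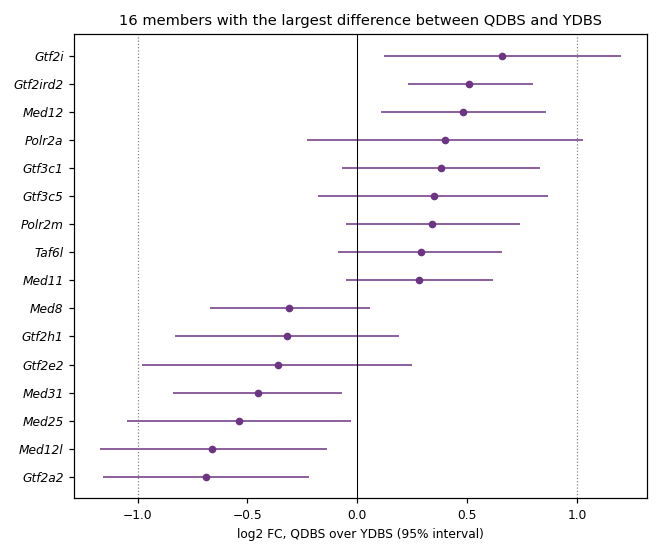
Log2 FC of QDBS over YDBS (horizontal axis) for the 16 members with the largest difference, as points with 95% intervals from limma. None was called; Gtf2i (0.66) and Gtf2ird2 (0.51) lie at the QDBS end, and Gtf2a2 (-0.69) and Med12l (-0.66) at the YDBS end.

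Genes that act beside the members were read from lists of known partners. Of 9 measured genes listed as the TATA-binding protein and other initiation factors, 5 were up-regulated in QDBS (55.6%) and 4 in YDBS (44.4%). None was down-regulated. The shares of all genes called up were 9.62% and 10.4%, or 15.7% and 17.0% with the dimmest 40% left out. The list takes in the TFIIH subunits Ercc3, Cdk7, Ccnh and Mnat1, of which Ercc3 and Cdk7 were called in both models. Tbp itself, the TATA-binding subunit of TFIID, had 6.02, 6.13 and 6.26 on the QDBS arrays and 6.0, 6.24 and 6.38 on the YDBS arrays, against 5.58, 4.93 and 5.28 on the control arrays. No model array overlapped with a control array, and its log2 FC of 0.87 and 0.94 (FDR = 0.00251 and 0.00147) was short of the fold. Ercc3, the helicase of TFIIH, had 1.31 and 1.37, Cdk7, its kinase, 1.19 and 1.18, and Btaf1, which removes the TATA-binding protein from DNA, 1.17 and 1.15.

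Of 26 genes of pausing and elongation, 11 were up-regulated in QDBS (42.3%) and 12 in YDBS (46.2%), against 9.62% and 10.4% of all genes, or 22.4% and 24.4% of the genes above the 70th percentile of signal. They included Supt16h, a subunit of the histone chaperone FACT, with 2.40 and 2.17, and the elongation factor Tcea1, with 2.13 and 1.88. Aff4, the scaffold of the super elongation complex, had 1.93 and 1.98, whereas Cdk9, the kinase that releases paused polymerase, had 0.02 and 0.04 (95% intervals -0.25 to 0.29 and -0.23 to 0.31). Beside the same shares of all genes, 1 of 11 genes of the SAGA coactivator was up-regulated in QDBS (9.09%) and 2 in YDBS (18.2%), and of 7 genes of RNA polymerase I 2 (28.6%) and 1 (14.3%). Of 13 genes of RNA polymerase III 1 was up-regulated in each model (7.69%), Polr3c with 1.30 and 1.17. No gene of these lists was down-regulated.

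The promoters of the members were searched for 7 short motifs, as a description and not as evidence that a factor binds. RefSeq promoters were matched for 70 of the 81 members, among them 12 of the 16 called in either model, not Gtf2e2, Med1, Taf15 and Taf2. Both strands were read, and a promoter counts once however many matches it holds. The GC box, the site of SP and KLF factors, was in 75% of called members and 65.5% of other members, against 45.4% of the 14504 genes tested that have a promoter and 32.4% of all 27457 promoters. The ETS core was in 41.7% and 24.1%, against 10.8% and 7.74%. The NRF1 half-site was in 16.7% and 19.0%, against 9.02% and 6.57%, and the CRE half-site of CREB and ATF factors in 25% and 34.5%, against 22.4% and 19.0%.

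The CCAAT box was in 25% of called members and 41.4% of other members, against 35.2% of the genes tested and 34.3% of all promoters, and the ZNF143 core in none of 12 and in 10.3% of other members, against 3.34% and 2.97%. The TATA box was in 8.33% and 8.62%, against 11.3% and 13.1%. With 12 called promoters, 1 promoter is 8.33%, and no test was made.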

How the data were processed

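Blood RNA of 9 rats was labelled with a 3' IVT kit per the labels and hybridised to Affymetrix Rat Gene 2.0 ST arrays. The authors deposited log2 values of 30347 transcript clusters, made with RMA in Affymetrix Expression Console 1.1, which corrects background, normalizes quantiles and summarises probes; they were used without further scaling. The platform annotation listed 19086 clusters, of which 18511 carried 1 symbol and 575 several. Current symbols were found by Entrez identifier for 18394, and the brightest cluster of each gene gave 18166 genes, with no filter on low signal. Depth does not apply to arrays, and the 3 arrays of a group limit the precision.

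Groups were taken from the labels, which call the rats biological replicates. limma 3.58.1 in R 4.3.3 fitted 3 group means to all 9 arrays, with 6 residual degrees of freedom before moderation, and was tested on simulated data. Calls needed a Benjamini-Hochberg FDR below 0.05 together with a log2 FC beyond 1 in either direction, as in the study's methods. The t-test that the methods name was an alternative, beside other scalings, filters, variance models, array weights, a replicate block and leaving out each array. A dim cluster can hide a change, and clusters of paralogs can share probes. Genes of unlisted or shared clusters were not analysed here.

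The members, the roles, the lists and the tests were chosen with earlier results of these data known. The roles of Taf5l1, Taf6l, Polr2sl1 and Polr2k-ps2 were set after their values had been seen. Named members were the largest rises and falls, those called in 1 model, the brightest and the most and least changed of each role, and paralogs. Polr2c, Polr2d, Polr2e, Polr2f, Polr2h, Polr2i, Polr2j, Polr2m, Gtf2e1, Gtf2f1, Gtf2f2, Gtf2h5, Gtf2ird2, Gtf3c3, Gtf3c4, Taf1b, Taf11, Taf13 and the Mediator genes outside this rule were added after their values were seen. Promoters were 250 bases before the first start that RefSeq lists for a gene on GRCr8.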

Additional observations from a re-analysis of the deposited data

How the results depend on the processing

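No member reversed its direction where it was called. Of 47 members chosen by the rule for named genes, 3026 values kept their side of the criteria over all alternatives and comparisons, 40 dropped below them, 30 passed them and 0 reversed. The 7 genes called in both models under every alternative were Gtf2a1, Gtf2e2, Gtf2h1, Taf1, Taf15, Taf2 and Taf7.

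Scaling moved the size of the changes. The median log2 FC of the members in QDBS was 0.46 with arrays centred on their medians, 0.07 with centring on the 75th percentile and 0.17 after quantile normalization, against 0.29 as deposited. In YDBS it was 0.50, 0.09 and 0.01, and 0.13 after cyclic loess and 0.19 with array weights, against 0.30. The median of all genes moved with it, to 0.01 and 0.04 with median centring, -0.38 and -0.37 with centring on the 75th percentile, and -0.02 in both with cyclic loess. Of all calls 87.6% were up in QDBS and 91.9% in YDBS, but 67.0% and 72.0% with centring on the 75th percentile, 93.7% and 97.3% with median centring, 74.5% and 75.1% after quantile normalization. The number of members called in QDBS was 18 with median centring, 11 with centring on the 75th percentile, 12 after quantile normalization and 11 after cyclic loess, and in YDBS 19, 12, 11 and 12. The number of all 18166 genes called up moved too. In the same order it was 2191, 1254, 1414 and 1363 in QDBS, against 1747 as deposited. In YDBS it was 2445, 1415, 1459 and 1529, against 1892. By FDR alone 39 members were called in QDBS and 37 in YDBS, where 20.0% and 20.5% of all genes were higher and 22.9% and 25.3% lower. The methods' t-test called 10 in QDBS, without Med1, Med13, Med17, Polr2b and Taf1d, and 11 in YDBS, without Med1, Med13 and Polr2b. The share of all genes that it called was not counted, and the cause of these losses was not tested.

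With each array left out in turn, 11 to 17 members were called in QDBS, 13 to 16 in YDBS and 0 between the models. The median log2 FC ranged from 0.20 to 0.39 in QDBS, from 0.17 to 0.31 in YDBS and from 0.02 to 0.09 in QDBS against YDBS. Control replicate 2 gave the lowest counts: without it 11 members were called in QDBS, with Med1, Med12, Med17 and Taf1d lost, and 13 in YDBS, with Med1 lost. The count of all genes called up was also lowest without it. It was 1392 in QDBS, against 1747 with all arrays, and 1549 in YDBS, against 1892. The labels number replicates alike in each group, but arrays of the same number deviated together no more than others (r between -0.17 and 0.196, against -0.13 to 0.217), so the numbers were not read as pairs. With the replicate number as a block 15 members were called in QDBS, 14 in YDBS and 0 between the models, and the medians were 0.29 and 0.30. Signal over background limits Taf7l, Gtf2a1l and Med6, which lie below the 40th percentile.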
